A study of Mus musculus with 4 samples.

Results

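The genes described here are the 7 Jun and Fos subunits of the AP-1 transcription factor, Junb, Jun, Jund, Fos, Fosb, Fosl1 and Fosl2, measured as RNA in regulatory T (Treg) cells that were induced in vitro from mouse CD4+ T cells. They were chosen by name, as every non-control probe of the array that carries one of these gene symbols, which gave 7 of 37074 gene names and 12 of the 56605 probes on each array. Junbfl/flCd4-Cre mice have floxed Junb alleles and Cre recombinase expressed from the Cd4 promoter, which acts in T cells, and the control, Junbfl/fl, carries the same floxed alleles with no Cre named. Each genotype had 2 single-colour Agilent arrays, all from C57BL/6 mice. Per the labels, naive CD4+ T cells were sorted and cultured for 3 days on plate-bound anti-CD3 (1 μg/ml) with anti-CD28 (0.5 μg/ml), antibodies against IFN-γ and IL-4 (5 μg/ml each) and TGF-β1 (5 ng/ml), although the extraction label names colon. Whether the 2 arrays of a genotype stand for different mice or different cultures is not stated, so the p-values carry only array-to-array spread, part of which may be technical. The labels give neither the age of the mice nor the part of Junb between the loxP sites. No Cre-only group was analysed here.

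AP-1 is a pair of proteins joined through leucine zippers, in which a Jun protein pairs with another Jun protein or with a Fos protein. Fos proteins do not pair with each other and need a Jun partner to bind DNA. In T cells the antigen receptor and CD28 raise Jun and Fos proteins within hours, JunB and the related protein BATF bind DNA together with IRF4, and JunB can weaken or replace the action of Jun depending on the gene. The files carry no exon or UTR annotation, so coding and 3′ give the place of a probe in the known transcript, as background. The comparison asks whether any Jun or Fos paralogue differed in RNA level where Junb carried the deletion.

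Values are processed signals, the background-subtracted brightness of a spot in scanner units. Each of the 12 probes had 1 spot per array, and none of these spots was flagged as uneven, outlying or saturated. For the comparison, signals were put on the log2 scale relative to the 75th percentile of all probes on the same array, which was 119 and 101 on the arrays labelled Junbfl/flCd4-Cre 1 and 2, against 151 and 145 on controls 1 and 2. A log2 difference is Junbfl/flCd4-Cre minus control, with the standard error of limma's fit and n = 2 arrays per genotype. A probe is called changed at a Benjamini-Hochberg adjusted p under 0.05 over 33606 probes, those that both arrays of 1 genotype or more read well above background. Groups of 2 cannot pass that threshold in an exact permutation test, whose smallest two-sided p is 0.333. All 4 arrays lay on 1 slide and were read in 1 scan, with the arrays numbered 1 in the first row of the slide and those numbered 2 in the second, so same-numbered differences are also differences within a row.

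Of the 12 probes 10 were bright enough to be tested and 3 were called. The coding-region probe of Junb was lower, and the Fos probe and 1 of the Fosl2 probes were higher. The Junb coding probe was tested through the controls alone, since neither Junbfl/flCd4-Cre array read it well above background. Over all tested probes 6.78% were called, 5.53% higher and 1.25% lower. Jun, Jund, Fosb and Fosl1 had no called probe. The genotypes did not overlap on the scaled values in 4 of the 10 tested member probes, against 72.2% of all tested probes. None of the 3 calls held when any 1 array was left out, a fit in which limma called 0 probes on the whole array. The median log2 difference was -0.04 over the 10 member probes and -0.01 over all probes tested.

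**Figure D1:**
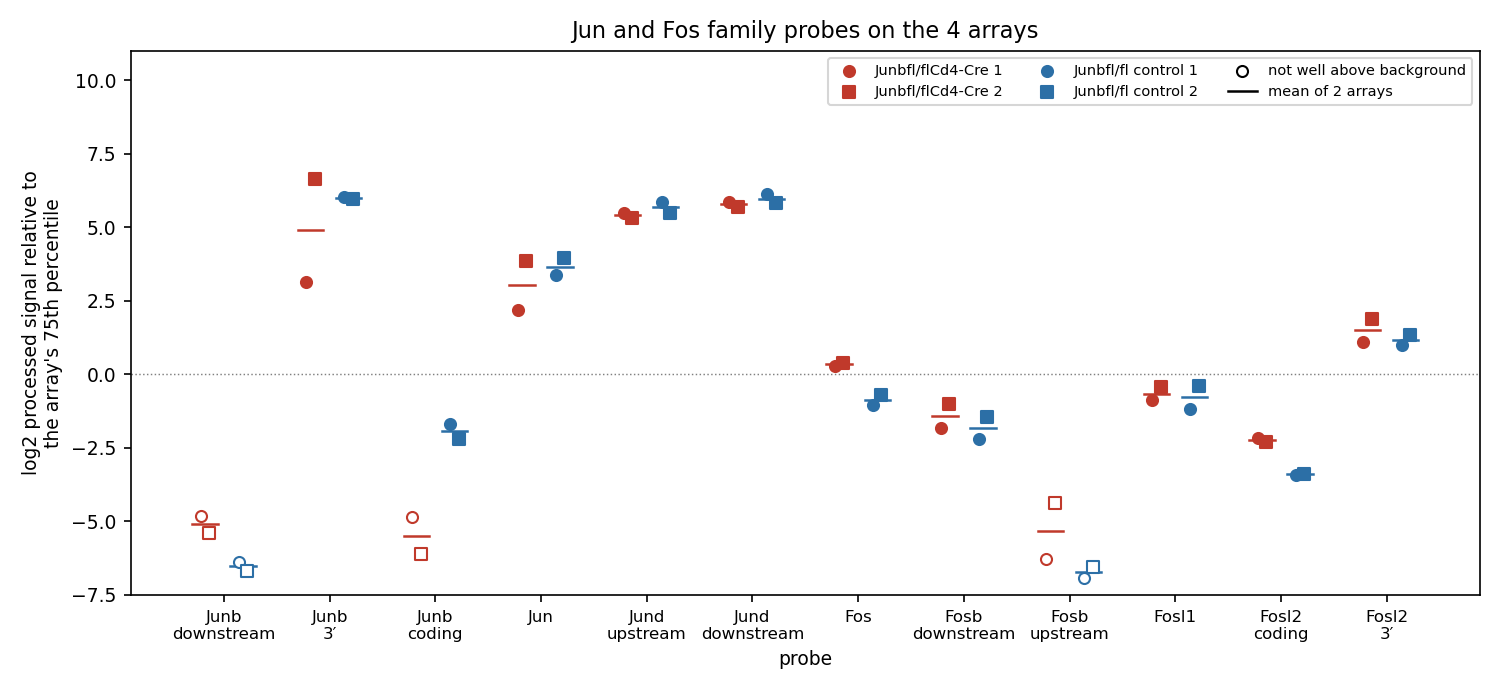
Each point is the log2 processed signal of 1 probe on 1 array, relative to the array's 75th percentile (vertical axis), for the 12 Jun and Fos family probes (horizontal axis). Red marks Junbfl/flCd4-Cre and blue control, circles array 1 and squares array 2, open symbols spots not well above background, and bars the mean of the 2 arrays. The Fos and Fosl2 coding points of the 2 genotypes are apart, while the Junb 3′ probe is low on array 1 labelled Junbfl/flCd4-Cre only.

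Junb, the deleted gene, has no introns and lies on the minus strand of chromosome 8, and was read by 3 probes with different patterns. The probe in the coding region (chr8:87501881-87501940, mm9) and the 3′ probe, 1038 bases further along the transcript (chr8:87500843-87500902), are printed next. The coding probe is shown whole, and 30 of the 60 bases of the 3′ probe (bases 23 to 52) are shown because they hold its longest run of TG, in capitals.
Junb coding probe: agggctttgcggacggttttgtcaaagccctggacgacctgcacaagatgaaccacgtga
Junb 3′ probe, part: agatgtgttTGTGTGTGTGTGtttgacttt

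The coding probe read 4.11 and 1.47 on arrays 1 and 2 labelled Junbfl/flCd4-Cre, neither well above background, against 47.2 and 31.7 on controls 1 and 2. The genotypes did not overlap. Because neither array labelled Junbfl/flCd4-Cre measured it, the difference is a bound. The Junb coding signal was at least 5.71-fold lower there, taking the lowest signal well above background on each array as the level. The probe entered the test through the controls alone. Its call (-3.55, limma adjusted p = 0.0396) used readings not well above background, so that p does not measure the bound. The call was kept in 3 of 10 other settings, with adjusted p up to 0.161 without control 1 and 0.0699 after normexp background correction with quantile normalization. The 3′ probe read 1053 and 10078 on arrays 1 and 2 labelled Junbfl/flCd4-Cre, against 9791 and 9072 on the controls. Array 1 was low and array 2 was as bright as the controls, so the genotypes overlapped and the difference was -1.10 ± 1.23 (SE, adjusted p = 0.527). That value was -2.85 without array 2 and turned to 0.65 without array 1. Within the same row of the slide it was -2.88 for number 1 and 0.67 for number 2. A probe outside the floxed part checks nothing about the deletion, and which of these probes lies inside it is not known here. Genotypes are therefore named by their labels, and every direction rests on those labels.

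The remaining Junb probe was designed on a retina cDNA that the files name Junb and lies 4208 bases beyond the start of the 3′ probe (chr8:87496635-87496694). It was not well above background on any array, at 4.21 and 2.43 on the arrays labelled Junbfl/flCd4-Cre and 1.82 and 1.43 on the controls, and was not tested. In the authors' deposited table, the Junb accession, which the coding and 3′ probes share, had a log2 difference of -1.03 (adjusted p = 0.269), with log2 signals of 7.35 and 8.99 on arrays 1 and 2 labelled Junbfl/flCd4-Cre and of 9.26 and 9.15 on the controls.

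Likeness to the Junb 3′ probe was measured as the root mean square difference (log2) between centred profiles over the 4 arrays, among 29594 probes above background on all of them. The closest named genes were Prrg4 (0.44), P2rx7 (0.47), an ATP-gated ion channel, and Cdkn1a (0.51), a cyclin-dependent kinase inhibitor. Cdkn1a read 100 and 972 on arrays 1 and 2 labelled Junbfl/flCd4-Cre, against 575 and 1435 on the controls. Unlike the Junb 3′ probe, Cdkn1a was also dimmer on control 1 than on control 2. With 4 points this likeness is a description only.

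Jun, which encodes c-Jun, the founding member of the family and the usual partner of Fos, was not called. Its probe (chr4:94716928-94716987, mm9) read 545 and 1467 on the arrays labelled Junbfl/flCd4-Cre, against 1557 and 2259 on the controls. The genotypes were apart in processed signal but overlapped after scaling, where array 2 labelled Junbfl/flCd4-Cre lay between the controls. The difference was -0.64 ± 0.64 (SE, adjusted p = 0.481), with a 95% interval from -2.38 to 1.11 on both sides of 0. As with the Junb 3′ probe, array 1 labelled Junbfl/flCd4-Cre was the low one, and without it the difference turned to 0.20. The row values were -1.17 for number 1 and -0.10 for number 2. Number 1 minus number 2 gave -1.67 in Junbfl/flCd4-Cre and -0.60 in control cells.

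Jund encodes the Jun protein that resting cells already hold and that responds least to stimulation. Both of its probes, which start 134 bases apart (chr8:73224302-73224361 and chr8:73224436-73224495), were bright on all 4 arrays. The upstream probe read 5363 and 4054 on the arrays labelled Junbfl/flCd4-Cre, against 8792 and 6535 on the controls. Its neighbour read 6896 and 5242 on the arrays labelled Junbfl/flCd4-Cre, against 10588 and 8143 on the controls. After scaling only the upstream probe kept the genotypes apart. Its difference was -0.27 ± 0.20 (SE, adjusted p = 0.362) and that of the downstream probe -0.20 ± 0.19 (SE, adjusted p = 0.471), and these signs flipped to 0.07 and 0.11 with quantile normalization. The 95% intervals, from -0.83 to 0.28 and from -0.72 to 0.33, were the narrowest among the tested Jun family probes. When tested probes were split into 5 bins of equal size by brightness, Jund lay in the brightest, whose median difference was -0.35.

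Fos, which encodes c-Fos, an immediate early gene of T cell activation, was higher in Junbfl/flCd4-Cre cells. It was read by 1 probe (chr12:86818118-86818177, mm9), whose first 30 bases are shown to identify the transcript end that was measured.
Fos probe, part: cctgaggtctttcgacatgtggaaagtgaa

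The Fos probe read 146 and 133 on the arrays labelled Junbfl/flCd4-Cre, against 72.3 and 88.5 on the controls. Both Junbfl/flCd4-Cre arrays were above both controls, before and after scaling. Fos rose 2.35-fold, by 1.23 ± 0.20 on the log2 scale (SE, adjusted p = 0.0477), with a 95% interval of 1.62-fold to 3.41-fold. The row values were 1.36 and 1.11. Fos lay in the middle brightness bin, where the median difference was 0.01 and 4.6% of probes were called. Of the 13 other settings 4 kept the call and 9 did not, with differences between 0.70 and 1.41 and adjusted p between 0.0213 and 0.175. Leaving out an array gave an adjusted p of 0.0838 without control 2 and of 0.155 to 0.175 without the others. In the authors' deposited table Fos had a log2 difference of 0.97 (adjusted p = 0.0457), the only called row of the 8 that name a Jun or Fos gene, where 2.41% of all rows were called.

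By the same measure the named genes closest to Fos were Grb7, an adaptor protein, and Accs and Hsd17b14, each within 0.03 log2 of its centred profile. Grb7 read 572 and 539 on the arrays labelled Junbfl/flCd4-Cre, against 289 and 350 on the controls. A profile near that of Fos was common. At least 7071 of the 29594 compared probes lay within 0.51 log2 of it, the distance of Cdkn1a from the Junb 3′ probe. The named genes are the nearest of many, and with 4 points this likeness too is a description only.

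Fosb encodes FosB, a Fos protein that activated cells make soon after stimulation. Its downstream probe (chr7:19888168-19888227, mm9) read 33.7 and 50.4 on the arrays labelled Junbfl/flCd4-Cre, against 32.8 and 52.5 on the controls. The genotypes overlapped and number 2 was the brighter array in both. The difference was 0.42 ± 0.41 (SE, adjusted p = 0.476) and flipped to -0.11 with scaling to the median. The upstream probe, 1978 bases away (chr7:19890146-19890205), was not well above background on any array, at 1.55 and 4.83 on the arrays labelled Junbfl/flCd4-Cre and 1.24 and 1.56 on the controls, and was not tested.

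Fosl1 encodes FRA-1, a Fos protein without the strong activation domain of c-Fos. Its probe (chr19:5455496-5455555, mm9) read 64.3 and 75.1 on the arrays labelled Junbfl/flCd4-Cre, against 66.7 and 110 on the controls. The genotypes overlapped. The difference was 0.13 ± 0.35 (SE, adjusted p = 0.803) and flipped to -0.41 with scaling to the median, and its 95% interval reached from 0.560 to 2.13 times the control level.

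Fosl2 encodes FRA-2, a Fos protein known as a regulator of Th17 and Treg cell programmes. It was read by 2 probes, 4988 bases apart on the plus strand of chromosome 5, of which 1 was called. The difference between them was not tested. The coding-region probe (chr5:32455088-32455147, mm9) is shown whole, and of the 3′ probe (chr5:32460076-32460135) the first 30 bases are shown, to set the transcript parts they read side by side.
Fosl2 coding probe: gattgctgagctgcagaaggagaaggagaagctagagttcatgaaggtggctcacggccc
Fosl2 3′ probe, part: gctatggaggaaagaacatattaaaaactt

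The coding probe was dim, at 26.6 and 20.7 on the arrays labelled Junbfl/flCd4-Cre against 14.3 and 13.9 on the controls. Both Junbfl/flCd4-Cre arrays were above both controls, and all 4 were well above background. The signal rose by 1.17 ± 0.15 on the log2 scale, or 2.24-fold (SE, adjusted p = 0.0372). The 3′ probe was brighter and read 258 and 371 on the arrays labelled Junbfl/flCd4-Cre, against 299 and 366 on the controls. These overlapped, with a difference of 0.33 ± 0.33 (SE, adjusted p = 0.477) that flipped to -0.20 with scaling to the median. The call on the coding probe was kept in 2 of 11 other settings. The probe gave 0.72 (adjusted p = 0.0883) with quantile normalization and 0.15 (adjusted p = 0.24) after normexp background correction with quantile normalization. An added offset of 50 in normexp shrinks the differences of dim probes, but its part in this value was not tested. The brightness bin of the coding probe had a median difference of 0.27, and 8.02% of probes in that bin were called. In the authors' deposited table the Fosl2 accession, shared by both probes, had a log2 difference of 0.37 (adjusted p = 0.178).

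**Figure D2:**
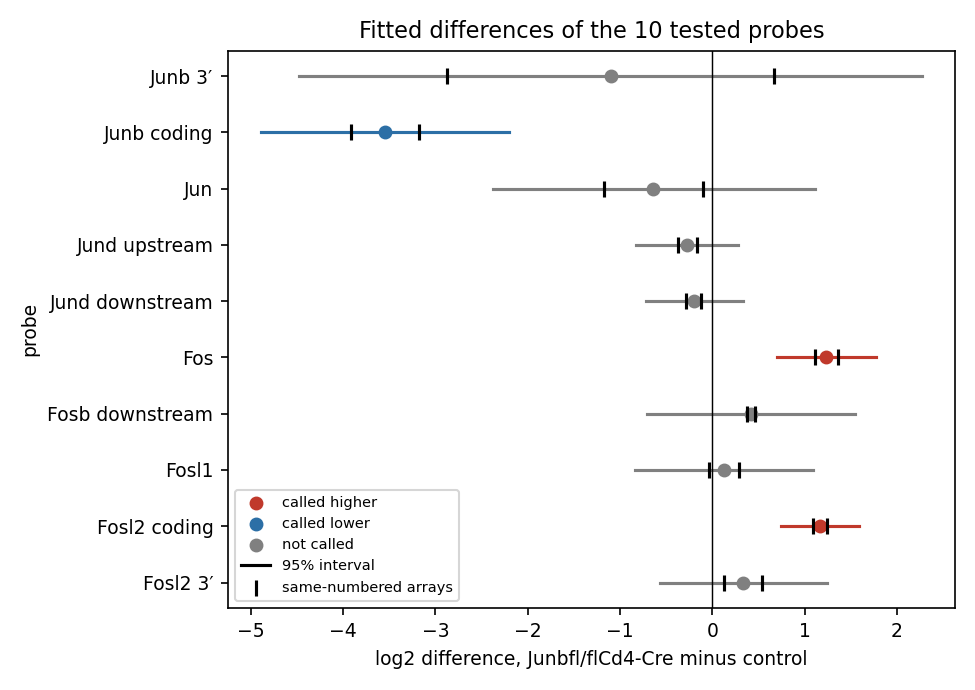
Points are the fitted log2 differences, Junbfl/flCd4-Cre minus control (horizontal axis), of the 10 tested probes (vertical axis), with 95% intervals as lines and the differences of the same-numbered arrays as ticks. The intervals of the Junb coding probe, of Fos and of the Fosl2 coding probe do not reach 0, and the Junb 3′ probe has ticks on either side of 0. The intervals are not adjusted for the number of probes. Of all 33606 tested probes 12843 had an unadjusted limma p under 0.05, so an interval that misses 0 was common. The interval of the Junb coding probe rests on Junbfl/flCd4-Cre readings that were not well above background.

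Scaling between arrays shifted every probe together. The median difference over all tested probes was -0.01 as reported, -0.54 with scaling to the median and -0.44 without scaling, a setting chosen after seeing the data, and 81.6%, 18.5% and 28.9% of called probes were higher under these 3 settings. Relative to that median a probe's difference is the same under these 3 settings by construction. Fos was 1.25, the Fosl2 coding probe 1.18 and the Fosl2 3′ probe 0.35. With quantile normalization these values were 1.28, 0.80 and 0.56, and with normexp and quantile normalization 0.85, 0.19 and 0.46.

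**Figure D3:**
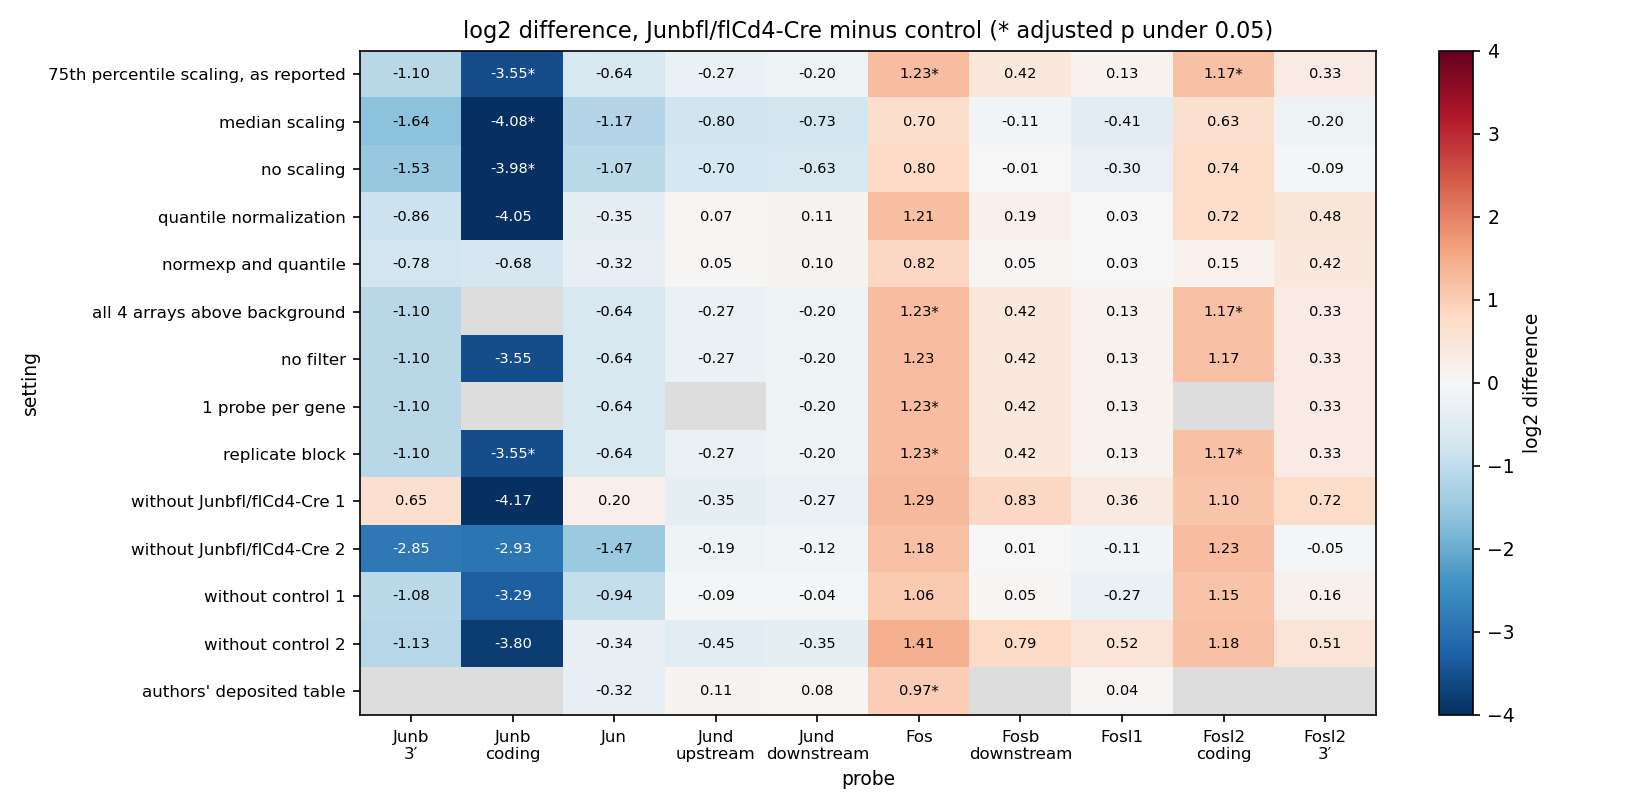
Each cell gives the log2 difference, Junbfl/flCd4-Cre minus control, of 1 probe (columns) under 1 setting (rows), with an asterisk where the adjusted p is under 0.05 and grey where the probe was not in that fit. Fos is positive in every row, while the Junb 3′, Jun, Jund, Fosb, Fosl1 and Fosl2 3′ columns hold both signs.

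Related genes were read by the brightest tested probe of each, and their calls depended on the scaling and on the block. Over all 22475 genes read this way 8.06% were called, 6.79% higher and 1.27% lower, and the median was 0.01. Under median scaling 8.95% of these genes were called higher and 32.4% lower, without scaling 8.5% higher and 17.2% lower, and with the replicate number as a block 20.8% were called higher and 8.35% lower. Among the bZIP proteins that can pair with Jun or Fos, 10 of 13 were tested, 0 were called and the median was -0.23, while 3 were called lower under median scaling, 2 without scaling and 1 with the block. Maf, a driver of interleukin-10 and interleukin-17 programmes, gave -2.15 ± 0.42 (SE, adjusted p = 0.0615, and 0.0307, 0.0264 and 0.0306 in those 3 settings), and its signals of 190 and 143 in Junbfl/flCd4-Cre cells lay below those of 683 and 1420 in controls. Batf, the JunB partner of T cells, gave -0.66 ± 0.17 (SE, adjusted p = 0.0814) and was called under median scaling (-1.19, adjusted p = 0.0331) and without scaling (-1.09, adjusted p = 0.0432). All 16 kinases and ubiquitin ligases of Jun and Fos were tested and 0 were called, with a median of -0.32. Of these 15 lay in the 2 brightest bins, whose medians over all tested probes were -0.23 and -0.35. Under median scaling 11 of the 16 were called lower, without scaling 3, and with the block 1 was called higher and 1 lower. Mapk3, the kinase ERK1, gave -0.77 (adjusted p = 0.074) and Fbxw7, which marks Jun for destruction, -0.62 (adjusted p = 0.0788), and both were called under median scaling (adjusted p = 0.0331 each) and without scaling (adjusted p = 0.0398 and 0.0434). Of 11 factors that transcribe Fos and Jun, 0 were called (median -0.12), against 4 lower under median scaling and 1 higher with the block. Elk1 gave 0.44 (adjusted p = 0.133), which flipped to -0.09 under median scaling and was 0.01 without scaling. Its signals were nearly level, at 110512 and 106227 in Junbfl/flCd4-Cre cells and 106977 and 108030 in controls. Elk3 gave -0.57 (adjusted p = 0.145) and was called under median scaling (-1.10, adjusted p = 0.035).

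Immediate early genes are induced together with Fos, and 0 of the 12 were called. Of their differences 9 of 12 were positive, with a median of 0.43. Under median scaling that median was -0.10, where the median of all tested probes was -0.54. Of the 12 genes 10 lay in the 2 brightest bins, whose medians over all tested probes were -0.23 and -0.35 with the scaling as reported. With the block, which is also a block for the slide row, 3 of the 12 were called higher, against 20.8% of all genes. Under median scaling 2 were called lower, against 32.4% of all genes, and without scaling 1, against 17.2%. Nr4a3, an orphan nuclear receptor of the T cell receptor response, read 132 and 94.3 in Junbfl/flCd4-Cre cells, against 85.8 and 66.3 in controls, a difference of 0.99 ± 0.20 (SE, adjusted p = 0.0637, with the block 0.0276). Btg2, an antiproliferative gene, gave 0.90 ± 0.19 (SE, adjusted p = 0.0679, with the block 0.0476).

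Of 16 textbook AP-1 targets 10 were tested, 2 fell and 0 rose, with 9 of 10 differences negative and a median of -1.34. Under median scaling 8 were called lower, without scaling 7, and with the block 5 lower and 1 higher. Vim, which encodes the intermediate filament vimentin, read 727 and 913 in Junbfl/flCd4-Cre cells, against 9843 and 6145 in controls, and fell by 2.82 ± 0.33 on the log2 scale (SE, adjusted p = 0.0335). Sphk1, the kinase that makes sphingosine 1-phosphate, read 24.5 and 39.8 in Junbfl/flCd4-Cre cells, against 351 and 573 in controls, and fell by 3.41 ± 0.45 (SE, adjusted p = 0.0372). Neither was called when any 1 array was left out, and with quantile normalization neither was called, at -2.54 (adjusted p = 0.0509) for Vim and -3.48 (adjusted p = 0.0567) for Sphk1.

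**Figure D4:**
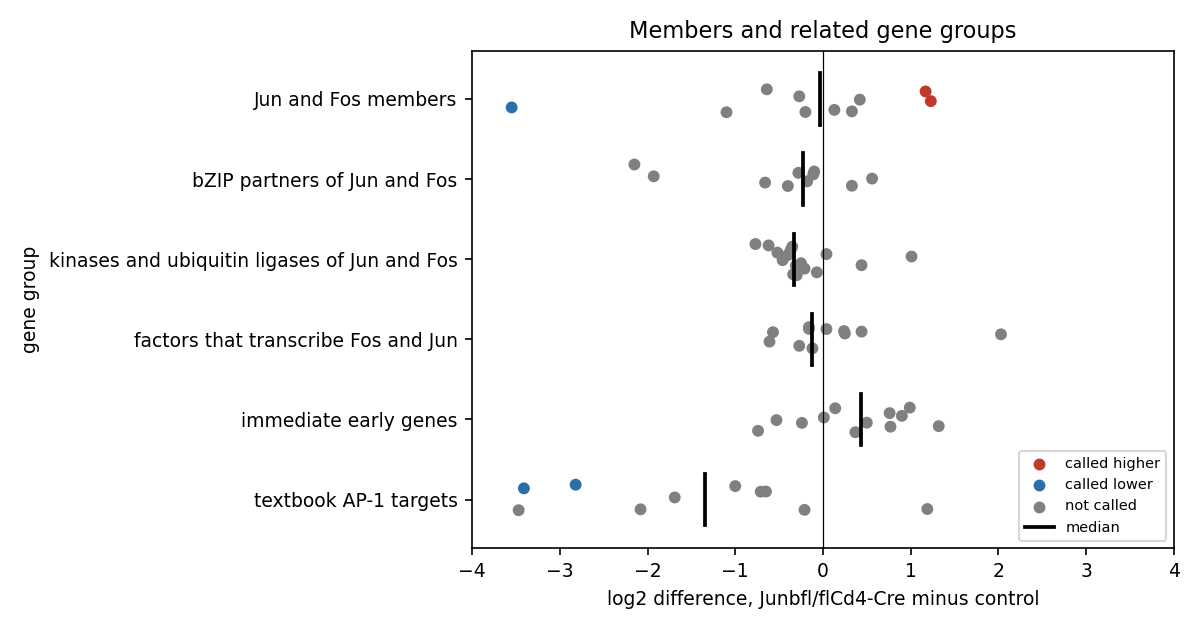
Points are log2 differences, Junbfl/flCd4-Cre minus control (horizontal axis), of the 10 tested member probes and of the tested genes of 5 related groups (vertical axis), with a bar at the median of each row. Called points are red (higher) or blue (lower), and with the scaling as reported the called points outside the Jun and Fos members are the 2 AP-1 targets Vim and Sphk1.

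Short stretches of the Jun and Fos promoters are shown because c-Jun is known to act on its own gene through a site of this kind, and the Fos promoter holds related letters. The RefSeq promoter table (GRCm38.p6, 250 bases before to 50 after the start) held 6 of the 7 genes, all but Fosl1. Searched on both strands, the AP-1 site TGANTCA was in 0 of the 6, against 7.81% of all 32851 promoters, and TGACGTCA in 0, against 1.79%. The variant TGACATCA was in Jun, 45 bases before its start, and in 3.62% of all promoters. The shorter TGACGT, which is also part of TGACGTCA, was in Fos, 66 bases before its start, and in 7.51% of all. Capitals mark these matches, which are descriptions of the letters only.
Jun promoter, chr4:95052234-95052293, minus strand: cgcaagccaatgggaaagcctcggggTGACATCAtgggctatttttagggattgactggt
Fos promoter, chr12:85473797-85473856, plus strand: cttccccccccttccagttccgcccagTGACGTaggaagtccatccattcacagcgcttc

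All 7 T cell markers on the array were well above background on every array, with summed signals (relative to the 75th percentile) of 586 and 546 in Junbfl/flCd4-Cre cells and 726 and 711 in controls. Of these Cd2 and Thy1 were called lower, and they and the other called markers below are named after their values were seen. Of 6 Treg markers 5 were above background on every array and Il10 on none, with sums of 106 and 120 in Junbfl/flCd4-Cre cells and 185 and 145 in controls. Ikzf2 was called higher and Ctla4 lower, and the median difference of the 5 tested was -1.20. Most of the Treg sum was Tnfrsf18 and Il2ra. Tnfrsf18 read 9223 and 7123 in Junbfl/flCd4-Cre cells and 13427 and 7426 in controls (0.13, adjusted p = 0.777). Il2ra read 2279 and 3668 in Junbfl/flCd4-Cre cells and 12848 and 12037 in controls (-1.67, adjusted p = 0.0669). Foxp3, which defines Treg cells, read 298 and 584 on the arrays labelled Junbfl/flCd4-Cre and 1287 and 1301 on the controls, with a difference of -1.20 (adjusted p = 0.135). Beside the higher Fos signal, the summed B cell markers (6 genes) were 7.16 and 4.74 in Junbfl/flCd4-Cre cells and 3.56 and 1.39 in controls, with Ms4a1 called higher of 5 tested. Summed myeloid markers (6 genes) were 60.9 and 32.2 in Junbfl/flCd4-Cre cells and 26.1 and 17.7 in controls, with 0 of 5 tested called and Adgre1 above background on no array. Most of the myeloid sum was Itgam, at 6558 and 2121 in Junbfl/flCd4-Cre cells and 3582 and 1941 in controls (0.93, adjusted p = 0.292). The median difference of the 5 tested myeloid markers was 1.60. The epithelial sum was 0.663 and 0.707 in Junbfl/flCd4-Cre cells and 0.286 and 0.352 in controls, with Krt20, Cdh1 and Muc2 above background on no array and Slc26a3 called higher of 3 tested. The other tested epithelial markers went in opposite directions, Epcam at -0.48 (adjusted p = 0.508) and Krt8 at 1.72 (adjusted p = 0.0555). The stromal sum was 17.7 and 18 in Junbfl/flCd4-Cre cells and 28.9 and 24.3 in controls, with Dcn called higher of 4 tested. Most of that sum was Acta2, at 1962 and 1730 in Junbfl/flCd4-Cre cells and 4275 and 3433 in controls (-0.63, adjusted p = 0.0885). The other 3 tested stromal markers had positive differences, of 1.14 for Col1a2 (adjusted p = 0.102), 3.18 for Dcn (adjusted p = 0.0276) and 0.47 for Pecam1 (adjusted p = 0.168), and the median of the 4 was 0.80. The part of these cell types in the Fos, Fosl2 or Junb values was not tested, and in RNA from a whole culture fewer cells of a type and less RNA per cell cannot be told apart.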

How the data were processed

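Each array was deposited as a scan read with Agilent Feature Extraction 11.5.1.1, per the submitters' processing notes and the file headers. The deposited processed intensity of a spot had its background subtracted and spatial trend removed on each array by that software, with no scaling across arrays, and flags mark spots well above background, saturated or outlying. The authors also deposited a table of log2 signals, log2 differences and p-values by accession. Its normalization is not stated. It holds 1 row per accession, and on array 1 labelled Junbfl/flCd4-Cre its values correlated with the probe each row names at 0.99 across 20632 accessions read by 1 probe but at 0.859 across 5834 read by several, so it serves as an alternative only for Jun, Jund, Fos and Fosl1.

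Between 108 and 215 outlying spots per array were left out of 59305 non-control spots, spots of a probe were averaged, and 56310 probes had a usable spot on every array. Well above background were 61% to 66.3% of non-control spots in Junbfl/flCd4-Cre and 59.3% to 60.5% in control arrays. Probe positions are those of the files (mm9), while promoters are RefSeq's (GRCm38.p6). Log2 intensity minus the array's 75th percentile was fitted with limma 3.58.1 (R 4.3.3) without covariates, after a test of the fit on simulated data. Tables used Python 3.11.15 and pandas 2.3.3. The number of arrays limits the precision.

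The members, the gene lists and the rule for named genes were chosen with earlier results of these data known. The rule names every member probe, up to 4 called genes per list or else the 2 with the smallest p, and the 3 genes closest in profile to the brightest Junb and Fos probes. Markers of T, Treg, B, myeloid, colon epithelial and stromal cells were read from their brightest probe. Other settings were median, quantile or no scaling, normexp background, other filters, 1 probe per gene, a replicate block, each array left out, and the authors' table. A slide block was not run, since the slide holds all arrays.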

Additional observations from a re-analysis of the deposited data

How the results depend on the processing

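The count of called probes, 2277 as reported, was 12972 with median scaling, 7913 without scaling, 650 with quantile normalization, 338 with normexp and quantile normalization, 1377 with all 4 arrays above background and 8522 with the replicate block. Limma called 0 without a filter (12028 at an unadjusted p under 0.05) and 0 without any 1 array (7315 to 11361 unadjusted), where the lone array is assumed to vary like the other genotype. Of the member probes 3 were called as reported. Median scaling called 1 and no scaling 1 (Junb coding in both), and 1 probe per gene called 1 (Fos). Quantile normalization, normexp and no filter called 0. At an unadjusted limma p under 0.05, quantile normalization held 3 of 10 member probes, against 10833 of 33606 probes. For normexp this was 2 of 10, against 10502 of 33606, and without a filter 4 of 12, against 12028 of 56310. The block kept the 3 member probes called as reported. With all 4 arrays above background 2 of 9 tested member probes were called (Fos and Fosl2 coding), and the Junb coding probe was not in that fit. No label pairs the arrays, but same-numbered arrays share a slide row, and number 1 minus number 2 correlated at 0.45 between genotypes across probes, with only 2 pairs.

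Signs turned as follows, none called. With median scaling and without scaling, Fosb gave -0.11 and -0.01, Fosl1 -0.41 and -0.30, the Fosl2 3′ probe -0.20 and -0.09, and with median scaling Elk1 gave -0.09. Both settings move every probe by the same amount. Relative to the median of all tested probes these differences stayed at 0.43 for Fosb, 0.14 for Fosl1, 0.35 for the Fosl2 3′ probe and 0.45 for Elk1. The cause of the turns that follow was not tested. The upstream and downstream Jund probes gave 0.07 and 0.11 with quantile normalization, 0.05 and 0.10 with normexp, and 0.11 and 0.08 in the authors' deposited table. Without array 1 labelled Junbfl/flCd4-Cre the Junb 3′ probe gave 0.65 (range over arrays left out -2.85 to 0.65) and Jun 0.20 (-1.47 to 0.20). Fosl1 gave -0.11 without array 2 labelled Junbfl/flCd4-Cre and -0.27 without control 1 (range -0.27 to 0.52), and the Fosl2 3′ probe -0.05 without array 2 (-0.05 to 0.72).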
